A study of Mus musculus with 112 samples.

Results

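Expression of 7 mouse genes of sugar uptake and fructose breakdown was examined in epididymal white adipose tissue (WAT) of calorie-restricted (CR) and control mice of 7 strains. They were the carrier genes Slc2a1, Slc2a3, Slc2a4, Slc2a5, Slc2a8 and Slc2a12 and the ketohexokinase gene Khk. The genes were chosen by symbol, as probe sets that carry 1 of these names and no other, of which the brightest would be kept. Each gene had exactly 1 such probe set, so signal made no choice among probe sets, and all 7 genes were measured of 19938 in all. The list was nevertheless selected with the CR changes of Slc2a5 and Slc2a4 in these same arrays already known, and the tests given for them are a description of these mice rather than independent support.

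All 112 mice were males, housed singly, with 8 CR and 8 control mice per strain and 1 array per mouse. The inbred strains were 129S1/SvImJ, BALB/cJ, C57BL/6J, C3H/HeJ, CBA/J and DBA/2J, and B6C3F1/J is the hybrid of C57BL/6J and C3H/HeJ. CR began at 8 weeks of age and tissue was taken at 22 weeks after an overnight fast. CR mice of the strains other than BALB/cJ started on 18 g of food a week, against 24 g in their control mice. CR in 129S1/SvImJ and C57BL/6J was deepened from 18 g to 14 g during the study, and BALB/cJ mice received 24 g on CR, against 31 g on the control diet. B6C3F1/J, DBA/2J, CBA/J and C3H/HeJ thus had the same food, as did 129S1/SvImJ and C57BL/6J, while between strains fed differently the amount of food and the strain cannot be told apart.

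Carriers of the SLC2 (GLUT) family let sugars cross the cell membrane down their gradient. In the fat cell, insulin moves GLUT4, the product of Slc2a4, from vesicles inside the cell to its surface, and the glucose that enters can be turned into fatty acids and glycerol. Fructose enters through GLUT5, the product of Slc2a5, and is phosphorylated by ketohexokinase. All levels are log2 array signals, so a difference of 1 is a doubling, and levels of different genes cannot be set against each other.

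The tissue label was checked on its markers: the adipocyte markers (8 genes, Adipoq and Plin1 among them) had, averaged per mouse, a log2 signal of 11.46 to 12.77 in the 56 CR mice and 12.38 to 12.85 in the 56 control mice. The 11.46 was C57BL/6J CR replicate 2, an array with raised epididymis genes. Of the 8 adipocyte markers 5 fell on CR across strains (limma), where 22% of all genes did, and 0 rose. Epididymis genes were raised in 16 arrays, 12 of CR mice (5 C57BL/6J, 4 CBA/J and 3 DBA/2J) and 4 of control mice (all DBA/2J), and these are called the arrays that stand apart. Of 9 testis germ cell markers 5 rose on CR across strains (limma), where 21.9% of all genes did. Their means per mouse were 5.48 to 8.31 in CR mice and 5.44 to 6.94 in control mice. Their group means differed most in DBA/2J, at 6.89 on CR and 6.01 on the control diet. The 2 highest means, 8.31 and 7.94, were in DBA/2J CR mice that do not stand apart on the epididymis genes. In BALB/cJ, 2 mice had values like those of the other diet, and CR replicate 4 did so for Slc2a5. Control replicate 3 differed from the other 7 control mice in Slc2a3, Slc2a4 and Slc2a5, and CR replicate 6 was the lowest of the CR mice in Slc2a4 and Slc2a5. Whether these samples were exchanged was not tested and the labels were kept. The BALB/cJ changes of Slc2a3, Slc2a4, Slc2a5 and Slc2a12 with CR are given with and without control replicate 3 and CR replicate 6. Levels on each diet and tests across strains include both mice unless stated otherwise. In bulk tissue, fewer cells of a type and less RNA per cell cannot be told apart.

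Across the 7 strains, 3 of the 7 genes rose on CR (Slc2a5, Slc2a4 and Slc2a8), where 21.9% of all genes tested did so, and 1 fell (Slc2a12), where 22% of all genes did. Slc2a1, Slc2a3 and Khk did not pass the test. The genes lie at chr4:150119344-150144168 (Slc2a5), chr11:69942286-69948216 (Slc2a4), chr2:32972981-32982083 (Slc2a8), chr10:22644990-22703880 (Slc2a12), chr4:119108745-119137330 (Slc2a1), chr6:122727809-122802363 (Slc2a3) and chr5:30921436-30931248 (Khk) of GRCm38.p6. The median change of the 7 genes was 0.02 on the log2 scale, against 0.01 for all genes. These calls used limma with Benjamini-Hochberg adjustment over all genes and a threshold of 0.05.

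**Figure D1:**
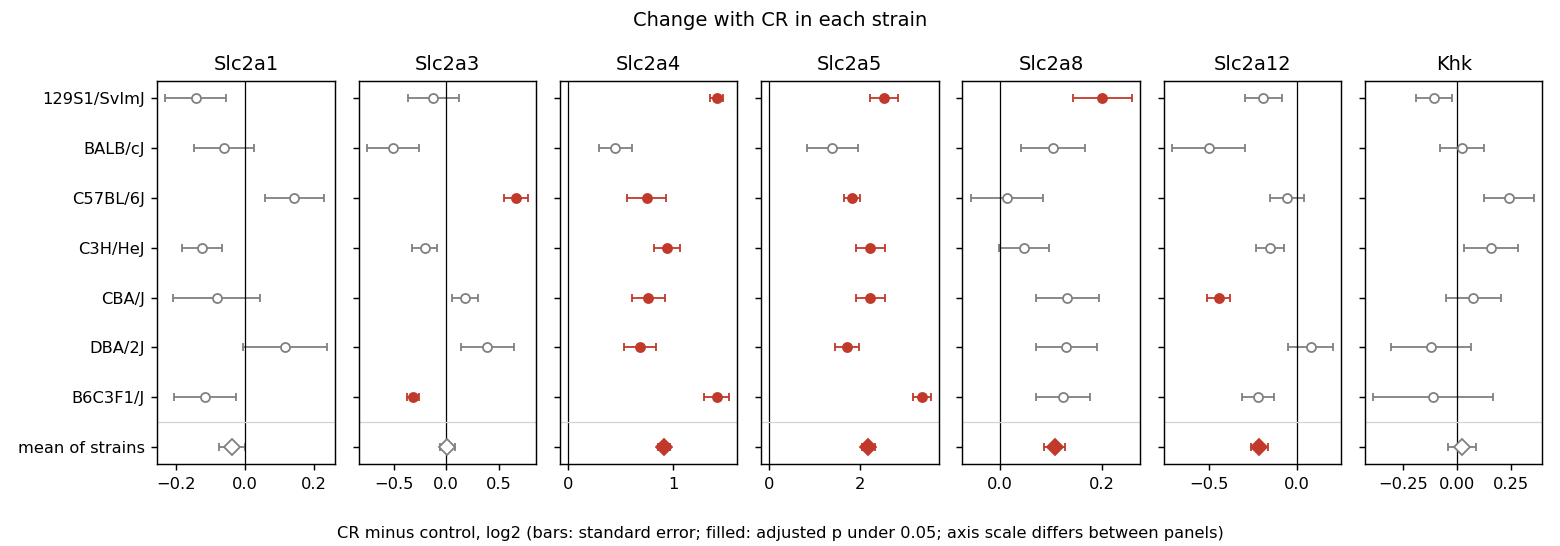
Change of each gene with CR, as the mean log2 signal of 8 CR mice minus that of 8 control mice, in each strain and as the mean over strains (diamonds). Bars are standard errors, filled symbols passed an adjusted p of 0.05, and each panel has its own axis. Slc2a5 and Slc2a4 lie right of 0 in all 7 strains, and Slc2a3 passed the test to the right in C57BL/6J and to the left in B6C3F1/J.

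Slc2a5, the fructose carrier, had the widest change of the 7 genes. Its log2 signal ran from 6.07 to 10.64 in the 56 CR mice (median 9.29), against 5.93 to 9.69 in the 56 control mice (median 6.58). The mean change over strains was 2.19 (SE 0.14, limma adjusted p = 1.33e-26), a 4.56-fold difference, and it was positive in 7 of 7 strains. CR mice above every control mouse of their strain numbered 48 of 56.

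The hybrid had the largest change. In B6C3F1/J, Slc2a5 had a lowest, median and highest log2 signal of 8.89, 9.73 and 10.46 in CR mice, against 6.09, 6.30 and 6.87 in control mice, a 10.4-fold difference (log2 3.37, SE 0.19, limma adjusted p = 1.38e-09). In 129S1/SvImJ the values were 7.26, 9.03 and 9.73 in CR mice, against 5.93, 6.25 and 6.70 in control mice (5.76-fold, adjusted p = 8.28e-06 by limma). No CR mouse overlapped the control range in either strain, nor in C57BL/6J or CBA/J.

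In C57BL/6J, Slc2a5 had log2 signals of 7.53, 8.00 and 8.79 (lowest, median and highest) in CR mice, against 5.93, 6.16 and 6.74 in control mice (3.57-fold, adjusted p = 3.8e-06 by limma). In CBA/J, which had the highest mean on either diet, they were 9.27, 10.29 and 10.64 in CR mice, against 6.26, 8.06 and 9.0001 in control mice (4.69-fold, adjusted p = 7.08e-05 by limma). The control mice of CBA/J spread over a wider range than those of 129S1/SvImJ, C57BL/6J and B6C3F1/J, whose control signals all stayed under 7. In C3H/HeJ the change was 4.71-fold (adjusted p = 0.000244 by limma) and in DBA/2J 3.29-fold (adjusted p = 0.0164), with 7 of 8 CR mice above every control mouse in each.

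BALB/cJ was the exception within strains. Slc2a5 had log2 signals of 6.07, 8.58 and 9.94 in CR mice, against 6.43, 6.62 and 9.69 in control mice, and the 2.63-fold difference did not pass the test (log2 1.40, SE 0.55, limma adjusted p = 0.643). The 9.69 is control replicate 3, while the other 7 control mice lay between 6.43 and 6.74, and the 6.07 is CR replicate 6, which lay below every control mouse. CR replicate 4, at 6.74, lay within the range of those 7 control mice. Without control replicate 3 the difference was 1.79 (SE 0.46, limma adjusted p = 0.0756), and without CR replicate 6 it was 1.72 (SE 0.50, adjusted p = 0.311). With the spread estimated from all 112 arrays, both mice included, the difference of 1.40 passed the test (limma adjusted p = 0.0314). Its SE was then 0.36, smaller than the 0.55 from BALB/cJ alone, whose SDs were 1.41 on CR and 1.11 on the control diet. An exact permutation test within the strain gave p = 0.0507.

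**Figure D2:**
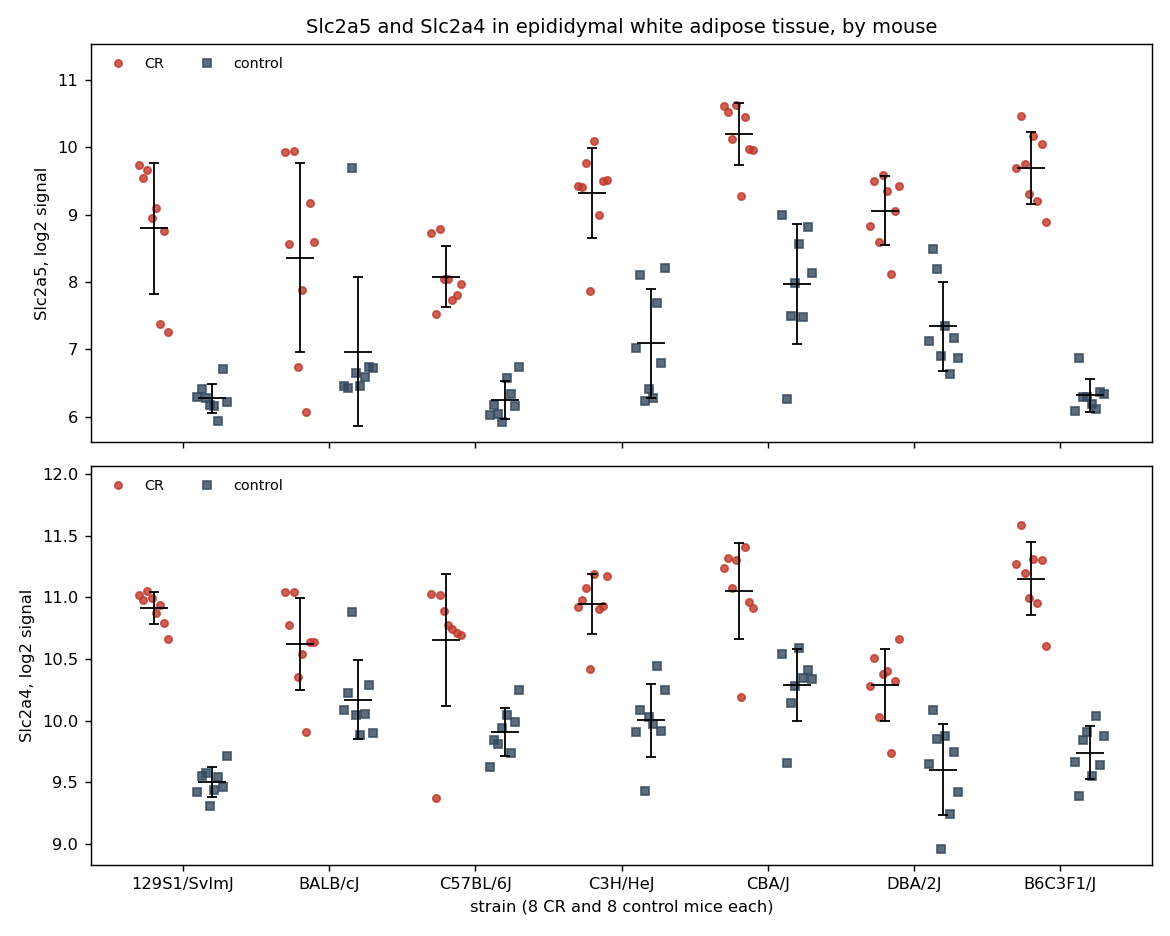
Log2 signal of Slc2a5 (upper panel) and Slc2a4 (lower panel) in each mouse, by strain, with CR mice as circles left of control mice as squares; horizontal lines and bars give mean and SD of 8 mice. BALB/cJ control replicate 3, at 9.69 for Slc2a5 and 10.88 for Slc2a4, sits among the CR mice of its strain.

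The RefSeq sequence (GRCm38.p6) upstream of Slc2a5 is shown because this gene carries the largest change, beside that of Slc2a12, which moved the other way. The Slc2a5 stretch is chr4:150119094-150119343 and the Slc2a12 stretch is chr10:22644761-22644989, both on the plus strand, 5′ to 3′ and ending at the base before the gene, with capitals marking a GC box (GGGCGG, or CCGCCC on the other strand).
Slc2a5: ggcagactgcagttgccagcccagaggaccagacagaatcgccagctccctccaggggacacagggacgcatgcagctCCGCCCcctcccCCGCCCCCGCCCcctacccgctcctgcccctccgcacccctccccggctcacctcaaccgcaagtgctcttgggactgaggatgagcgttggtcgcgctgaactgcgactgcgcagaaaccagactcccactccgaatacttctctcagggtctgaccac
Slc2a12: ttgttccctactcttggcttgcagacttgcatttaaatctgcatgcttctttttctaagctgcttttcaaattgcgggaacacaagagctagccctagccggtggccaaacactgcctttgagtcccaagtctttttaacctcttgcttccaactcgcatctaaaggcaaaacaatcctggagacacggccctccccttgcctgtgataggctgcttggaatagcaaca
The Slc2a5 stretch holds 3 GC boxes and the Slc2a12 stretch 0. Promoter windows of 250 bases were searched for the 5 genes with a promoter entry (Slc2a1, Slc2a5, Slc2a8, Slc2a12 and Khk), each counted back from the start that entry uses, which for Khk and Slc2a12 lies within the gene as located here. The windows of Slc2a1, Slc2a5 and Khk held a GC box, as did 32.7% of 32851 mouse promoters. Slc2a1 and Khk, which did not pass across strains, held 2 and 1, and Slc2a8, which rose, held 0. Whether GC boxes go with the change on CR was not tested. A TATA box (TATAAA, or TTTATA on the other strand) was in 0 of the 5 and in 12.4% of all promoters.

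Khk, which phosphorylates fructose once it is inside the cell, did not pass the test. Its log2 signal ran from 7.28 to 8.53 in CR mice (median 7.64), against 7.19 to 9.65 in control mice (median 7.63). The mean change was 0.02 (limma adjusted p = 0.818), with CR higher in 4 strains and lower in 3, and no strain passed. Khk alone of the 5 windows held an E-box (CACGTG, which reads the same on both strands), a sequence in 6.02% of promoters of the same length. It is shown with its flanks and in capitals, at chr5:30921476-30921505 on the plus strand, because none of the other 4 windows held one; the stretch lies just inside the gene as located here.
Khk: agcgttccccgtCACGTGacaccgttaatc

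Khk had 1 mouse far above all others. B6C3F1/J control replicate 2 was at 9.65, while the other 7 control mice of that strain lay between 7.35 and 7.79. That array also ranked 1 of 112 on 12 liver markers (Alb, Apoa1, Cps1 and others, a list drawn up after this value was seen), with a mean log2 signal of 11.45. Over the 112 mice, as deviations from their group means, Khk and the liver markers had a correlation of 0.64, which is a description over mice that share groups. Liver markers ran from 5.86 to 9.47 in CR mice and from 5.97 to 11.45 in control mice. Of the 12, 10 fell on CR across strains (limma), where 22% of all genes did. Their part in the Khk values was not tested. Without B6C3F1/J control replicate 2 the change of Khk in that strain was 0.14, against -0.11 with it. B6C3F1/J CR replicate 1, which ranked 10 on the liver markers and 3 on Khk, was kept in both. With each mouse of that strain left out in turn, the change ran from -0.23 to 0.14. Without C57BL/6J control replicate 2, which ranked 3 on the liver markers, the change of Khk in C57BL/6J was 0.32, against 0.24 with it. That change of 0.32 passed the p limit of the full fit, which only 1 of the 16 fits with a mouse left out did. Over those fits the change of Khk in C57BL/6J ran from 0.16 to 0.32. The fit that passed kept C57BL/6J CR replicate 2, the highest CR mouse of that strain for Khk at 8.28.

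Of 6 other measured enzymes and regulators of fructose and polyol metabolism (Tkfc, Glyctk, Akr1a1, Dcxr, Fbp1 and Gckr), 0 passed the test in either direction (limma), and 1, Gckr, the inhibitory protein of glucokinase, had an unadjusted p under 0.05 (change -0.15, adjusted p = 0.0727). Fbp1, a gluconeogenic enzyme, had a change of -0.33 (SE 0.23, limma adjusted p = 0.257). Fbp1 and Gckr correlated with the liver markers over mice at 0.82 and 0.81 in the same way as Khk was compared with them.

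**Figure D3:**
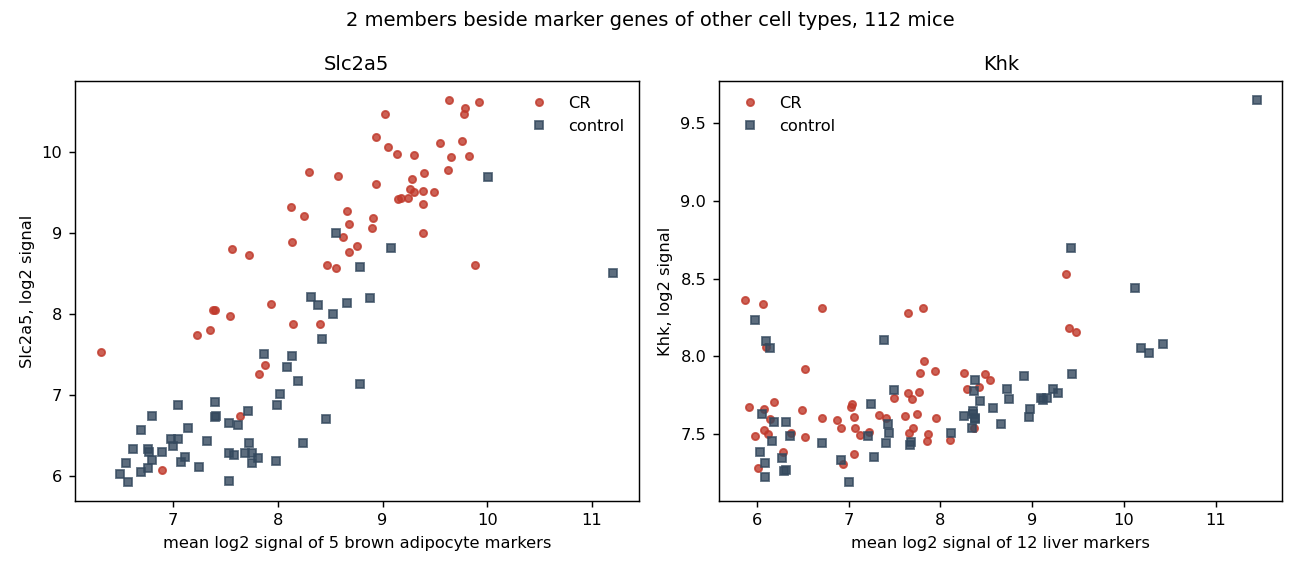
Slc2a5 against the mean of 5 brown adipocyte markers (left) and Khk against the mean of 12 liver markers (right), both axes in log2 signal, 1 point per mouse, CR as circles and control as squares. The upper right point of the Khk panel is B6C3F1/J control replicate 2, at 9.65. Slc2a5 tended to be higher in mice with higher brown adipocyte markers. The mouse with the highest of these markers, DBA/2J control replicate 2 at 11.20, had Slc2a5 at 8.50, below the CR median of 9.29.

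Slc2a5 varied between mice of a group together with the 5 brown adipocyte markers (Ucp1, Cidea, Elovl3, Cox8b and Cox7a1), with a correlation of 0.84 over 112 mice as deviations from group means. All 5 of these markers rose on CR across strains (limma), where 21.9% of all genes did. Their mean log2 signal ran from 6.31 to 9.92 in CR mice and from 6.49 to 11.20 in control mice. BALB/cJ control replicate 3 had 10.01 for these markers, the highest of the 16 BALB/cJ mice, and CR replicate 6 had 6.89, the lowest. The highest of all, DBA/2J control replicate 2 at 11.20, had a Slc2a5 signal of 8.50, the top of its control group. For Slc2a4 the same correlation was 0.72 and for Slc2a3 it was -0.61. The part of brown adipocyte RNA in these changes was not tested.

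Slc2a4, the insulin-regulated glucose carrier of fat and muscle, also rose across strains, and it passed in 6 of the 7. Its log2 signal ran from 9.37 to 11.59 in CR mice (median 10.92), against 8.96 to 10.88 in control mice (median 9.89). The mean change was 0.92 (SE 0.06, limma adjusted p = 1.33e-26), or 1.89-fold, with 7 of 7 strains positive and 45 of 56 CR mice above every control mouse of their strain. Without the arrays that stand apart it was 0.99.

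In 129S1/SvImJ, Slc2a4 had a lowest, median and highest log2 signal of 10.66, 10.96 and 11.05 in CR mice, against 9.30, 9.50 and 9.71 in control mice (2.67-fold, limma adjusted p = 1.9e-10). In B6C3F1/J the values were 10.60, 11.24 and 11.59 in CR mice, against 9.38, 9.75 and 10.04 in control mice (2.67-fold, adjusted p = 8.74e-08 by limma). The groups did not overlap in these 2 strains. The change was 1.93-fold in C3H/HeJ (adjusted p = 9.55e-05 by limma), 1.70-fold in CBA/J (adjusted p = 0.00183) and 1.68-fold in C57BL/6J (adjusted p = 0.00937), with 7 of 8 CR mice above every control mouse in each.

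The odd mouse out in C57BL/6J was CR replicate 2, at 9.37, and in CBA/J it was CR replicate 5, at 10.19. Both arrays stand apart on the epididymis genes, with means of 10.85 and 10.66 for those genes, and Slc2a4 correlated with them at -0.50 over mice as deviations from group means. In DBA/2J, Slc2a4 had log2 signals of 9.73, 10.35 and 10.66 in CR mice, against 8.96, 9.69 and 10.08 in control mice (1.61-fold, limma adjusted p = 0.0454). That call was close to the threshold and was lost when any 1 of 11 of the 16 mice was left out, although the difference stayed between 0.60 and 0.77. The testis germ cell markers averaged 6.89 ± 0.90 in CR mice and 6.01 ± 0.49 in control mice of DBA/2J (SD, n = 8 each), and their part in this result was not tested. In BALB/cJ the difference of 0.45 (SE 0.16) did not pass (limma adjusted p = 0.609), with CR values of 9.91, 10.64 and 11.05 against control values of 9.88, 10.07 and 10.88. It was 0.55 without control replicate 3 (limma adjusted p = 0.072) and 0.55 without CR replicate 6 (adjusted p = 0.311).

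Of 13 measured genes of the machinery that holds GLUT4 vesicles and delivers them to the membrane, 5 rose and 3 fell across strains (limma), against 21.9% higher and 22% lower among all genes. Rala, a small GTPase of vesicle tethering, rose by 0.26 (adjusted p = 2.16e-13), and Aspscr1 (TUG), which holds the vesicles inside the cell, rose by 0.24 (adjusted p = 5.25e-20), both in 7 of 7 strains. Trarg1, a protein that travels with GLUT4, fell by 0.41 (adjusted p = 4.7e-15), and Stxbp3 (Munc18c), which binds the membrane syntaxin, fell by 0.16 (adjusted p = 1.5e-06). The median change of the list was 0.00 on the log2 scale, against 0.01 for all genes.

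Slc2a12, a carrier that also moves glucose and is held inside cells, was the 1 gene of the 7 that fell. Its log2 signal ran from 6.53 to 8.15 in CR mice (median 7.19), against 6.58 to 8.56 in control mice (median 7.43). The mean change was -0.21 (SE 0.05, limma adjusted p = 8.14e-05), or 0.86-fold, and it was negative in 6 strains and positive in DBA/2J (0.08). Only in CBA/J did it pass within the strain, with 6.53, 6.75 and 6.98 in CR mice, against 7.08, 7.15 and 7.42 in control mice (0.74-fold, adjusted p = 0.000107 by limma). There the 8 CR mice lay below all 8 control mice. In BALB/cJ the difference was larger, at -0.50 (SE 0.21), but it did not pass (limma adjusted p = 0.653), and the CR mice spread from 6.76 to 8.15, against 7.61 to 8.56 in control mice. It was -0.57 without control replicate 3 (limma adjusted p = 0.175) and -0.52 without CR replicate 6 (adjusted p = 0.383). With the spread of all 112 arrays the difference of -0.50 passed (limma adjusted p = 0.0252), while an exact permutation test within the strain gave p = 0.0519. A test of whether the Slc2a12 change differs between strains did not pass (limma F test, adjusted p = 0.088), although it did without BALB/cJ control replicate 3 (adjusted p = 0.0465).

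Slc2a3, the high-affinity glucose carrier of neurons and blood cells, had a mean change near 0 (0.01, SE 0.08, limma adjusted p = 0.925) and strains that moved apart. In C57BL/6J its log2 signals were 7.67, 8.38 and 8.53 in CR mice, against 7.38, 7.61 and 8.05 in control mice (1.58-fold, adjusted p = 0.000905 by limma). In B6C3F1/J they were 6.69, 6.96 and 7.08 in CR mice, against 7.13, 7.24 and 7.43 in control mice (0.80-fold, adjusted p = 0.000283 by limma). Slc2a3 was thus higher in 7 of 8 CR mice than in any control mouse of C57BL/6J, and lower in all 8 than in any control mouse of its hybrid.

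The test of a difference between strains passed for Slc2a3 (limma F test, adjusted p = 0.00703). With the spread of all 112 arrays, the C57BL/6J change still passed (limma adjusted p = 0.00804) and the B6C3F1/J change did not (adjusted p = 0.264). Exact permutation tests within each strain gave p = 0.000466 in C57BL/6J and p = 0.000155 in B6C3F1/J. In the remaining strains the changes of Slc2a3 ran from -0.51 in BALB/cJ to 0.39 in DBA/2J and none passed. Without BALB/cJ control replicate 3 the BALB/cJ change was -0.66 (SE 0.22, limma adjusted p = 0.135), and without CR replicate 6 it was -0.63 (adjusted p = 0.352). CR mice of 129S1/SvImJ spread from 7.15 to 8.96 for this gene, wider than the control mice at 7.87 to 8.78.

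**Figure D4:**
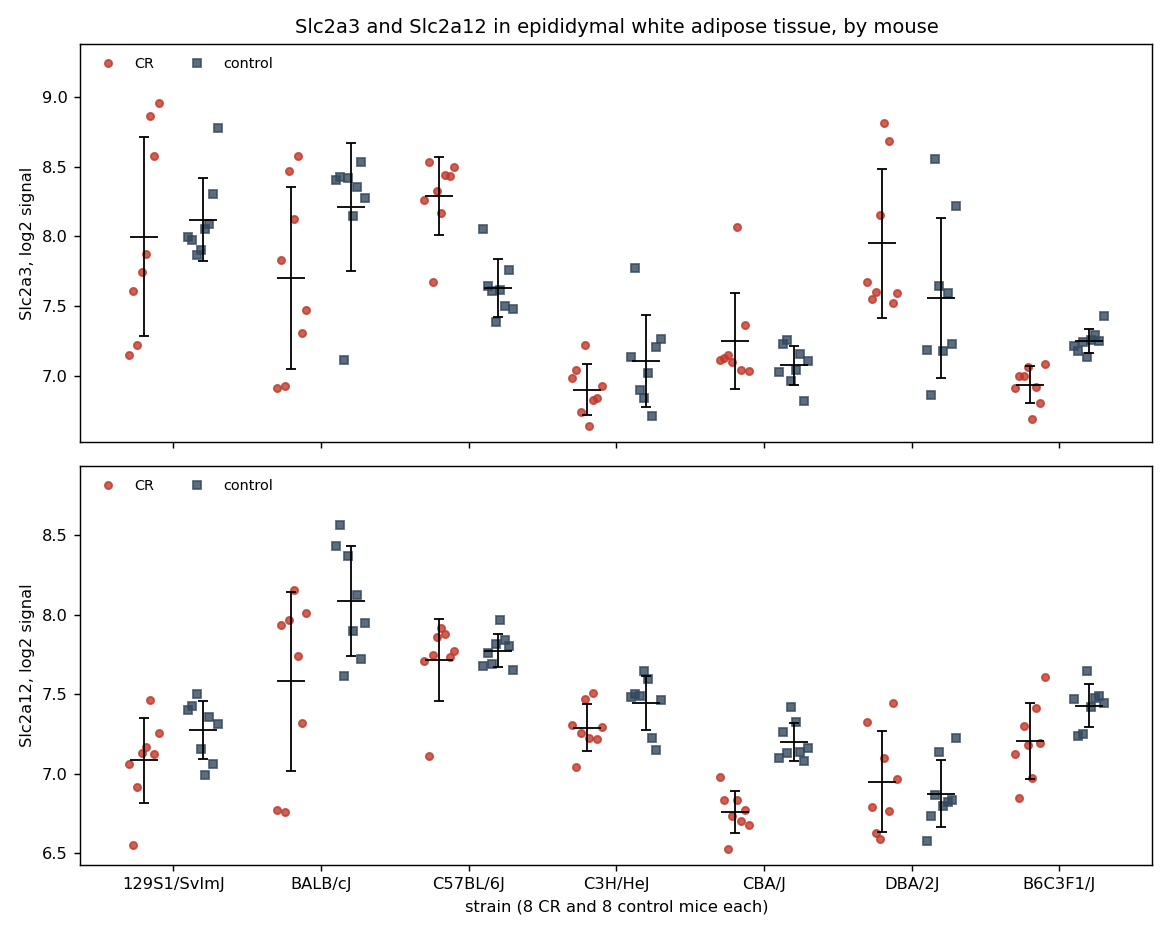
Log2 signal of Slc2a3 (upper panel) and Slc2a12 (lower panel) in each mouse, by strain, with CR mice as circles left of control mice as squares; lines and bars give mean and SD of 8 mice. Slc2a3 is higher in 7 of 8 CR mice than in any control mouse of C57BL/6J and lower in all 8 in B6C3F1/J, and Slc2a12 is lower in all 8 CR mice than in any control mouse of CBA/J.

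Slc2a8, an intracellular glucose and fructose carrier, rose by 0.11 on the log2 scale (SE 0.02, limma adjusted p = 6.62e-06), or 1.08-fold, with a positive difference in 7 of 7 strains. Within strains it passed in 129S1/SvImJ, at 7.99, 8.11 and 8.39 in CR mice against 7.85, 7.90 and 8.05 in control mice (1.15-fold, adjusted p = 0.0130 by limma). Even there 3 of the 8 CR mice lay within the control range, and the change was small beside that of Slc2a5 or Slc2a4. Slc2a1, the basal glucose carrier of most cells, ran from 8.64 to 9.73 in CR mice (median 9.11) and from 8.77 to 9.65 in control mice (median 9.16). Its mean change of -0.04 (SE 0.04, limma adjusted p = 0.455) and those within the 7 strains, between -0.14 and 0.14, did not pass.

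Counted within strains, 3 of the 7 genes passed in 129S1/SvImJ (Slc2a4, Slc2a5 and Slc2a8), where 32.2% of all genes did, and 3 in C57BL/6J (Slc2a3, Slc2a4 and Slc2a5), where 16.7% did. Likewise 2 passed in C3H/HeJ, against 15.6% of all genes, and 3 in CBA/J (Slc2a4 and Slc2a5 higher, Slc2a12 lower), against 21.2%. In B6C3F1/J 3 passed (Slc2a4 and Slc2a5 higher, Slc2a3 lower), against 34.2%. In DBA/2J 2 passed, where 0.888% of all genes did. In BALB/cJ 0 of the 7 and 0% of all genes passed in limma, while 3 of the 7 and 1499 of all genes had an unadjusted p under 0.05, and 0 of the 7 passed the methods' t-test after adjustment.

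The size of the CR change differed between strains for 3 of the 7 genes, where 19% of all genes did so: Slc2a4 (limma F test, adjusted p = 0.000675), Slc2a3 and Slc2a5 (adjusted p = 0.0412). Without the arrays that stand apart, 2 of the 7 passed. Set against the mean of the other 6 strains, the change in BALB/cJ was smaller by 0.55 for Slc2a4 (difference -0.55, SE 0.16, limma adjusted p = 0.0420), the 1 gene of the 7 to pass where 3.25% of all genes did. This call was lost without BALB/cJ control replicate 3 and also without BALB/cJ CR replicate 6. The Slc2a4 difference was -0.44 without control replicate 3 (limma adjusted p = 0.147) and -0.45 without CR replicate 6 (adjusted p = 0.17), and Slc2a3 passed in its place at -0.76 (adjusted p = 0.0248) and -0.73 (adjusted p = 0.0457). For Slc2a5 the BALB/cJ difference was -0.92 (SE 0.39, limma adjusted p = 0.241) with both mice, -0.53 (adjusted p = 0.568) without control replicate 3 and -0.60 (adjusted p = 0.609) without CR replicate 6. Its test across strains gave an adjusted p of 0.0511 without control replicate 3.

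Levels on the control diet differed between strains for 5 of the 7 genes (limma F test), where 58.8% of all genes did. Since the probes were designed on 1 mouse genome, a strain's sequence under a probe and its RNA level cannot be told apart. DBA/2J also held the 4 control arrays that stand apart, and BALB/cJ control mice received 31 g of food a week, against 24 g in the other strains. BALB/cJ control replicate 3 was kept in all control levels and pair tests, which were not run without it. Of the 21 strain pairs, 15 differed for Slc2a12, 14 for Slc2a3, 10 for Slc2a4, 8 for Slc2a5, 5 for Slc2a1, 2 for Slc2a8 and 0 for Khk, against 22.2% of all pairs of all genes. Slc2a8 (adjusted p = 0.0545) and Khk (adjusted p = 0.173) did not pass the F test.

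Slc2a12 had the clearest order of strains. Its control mean was 8.08 ± 0.35 in BALB/cJ, 7.78 ± 0.10 in C57BL/6J, 7.44 ± 0.17 in C3H/HeJ, 7.43 ± 0.13 in B6C3F1/J, 7.28 ± 0.18 in 129S1/SvImJ, 7.20 ± 0.12 in CBA/J and 6.87 ± 0.21 in DBA/2J (SD, n = 8 each; limma F test adjusted p = 1.85e-14). Neighbours in this order differed between BALB/cJ and C57BL/6J, between C57BL/6J and C3H/HeJ, and between CBA/J and DBA/2J (limma adjusted p = 0.0146, 0.00855 and 0.00914). The steps between C3H/HeJ, B6C3F1/J, 129S1/SvImJ and CBA/J did not pass.

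For Slc2a3, BALB/cJ (8.21 ± 0.46) and 129S1/SvImJ (8.12 ± 0.30) headed the order on the control diet, and CBA/J (7.07 ± 0.14) closed it (SD, n = 8 each). Only the step between 129S1/SvImJ and C57BL/6J (7.63 ± 0.21) separated neighbours (0.49, limma adjusted p = 0.0242). For Slc2a4 the order ran from CBA/J (10.29 ± 0.29) through BALB/cJ, C3H/HeJ, C57BL/6J, B6C3F1/J and DBA/2J to 129S1/SvImJ (9.50 ± 0.12), and for Slc2a5 from CBA/J (7.97 ± 0.89) through DBA/2J, C3H/HeJ, BALB/cJ, B6C3F1/J and 129S1/SvImJ to C57BL/6J (6.25 ± 0.28), with no neighbours differing in either. CBA/J thus held the highest control level of both, 0.79 above 129S1/SvImJ for Slc2a4 and 1.72 above C57BL/6J for Slc2a5.

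**Figure D5:**
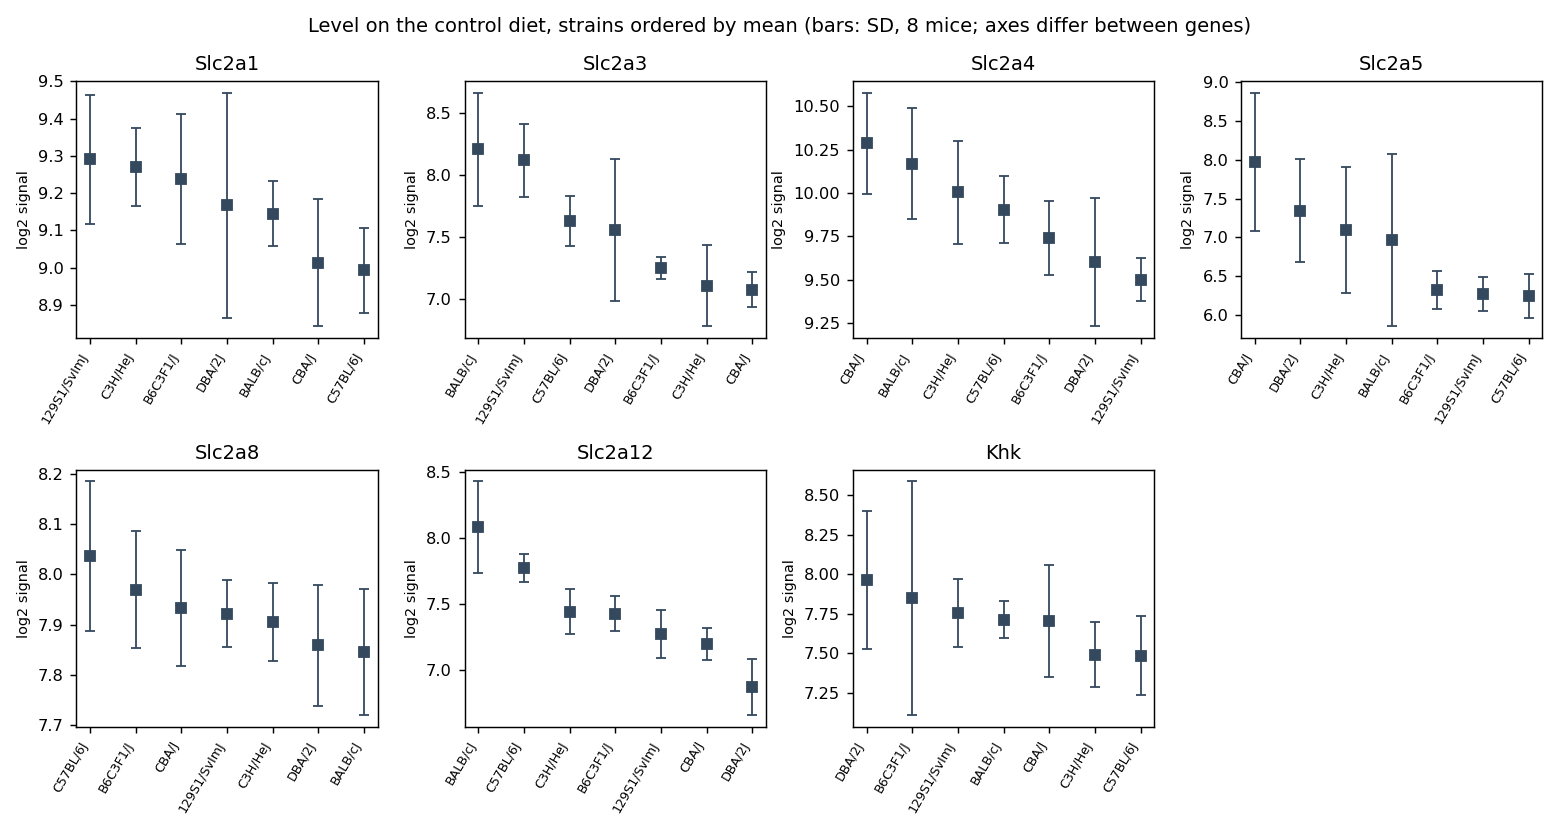
Mean log2 signal on the control diet (squares) with SD over 8 mice, strains ordered by their mean within each gene; each panel has its own axis. Slc2a12 falls in steps between BALB/cJ (8.08) and DBA/2J (6.87), while the bars of Khk overlap in all strains.

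On CR, levels differed between strains for 5 of the 7 genes as well, where 54% of all genes did: Slc2a3, Slc2a12, Slc2a5, Slc2a4 and, in place of Slc2a1, Slc2a8 (limma F test, adjusted p = 0.0226). On CR, B6C3F1/J headed the order of means for Slc2a4 (11.15 ± 0.30) and 129S1/SvImJ stood in its middle (10.91 ± 0.13), and no neighbours differed for any of the 7 genes. For Slc2a5, CBA/J kept the highest mean (10.20 ± 0.47) and C57BL/6J the lowest (8.08 ± 0.45, SD, n = 8 each). Control levels of the hybrid B6C3F1/J passed the test against the mean of C57BL/6J and C3H/HeJ for 0 of the 7 genes (limma), where 10.7% of all genes did. The hybrid's Slc2a12 was 0.18 below that mean (difference -0.18, SE 0.08, limma adjusted p = 0.185) and its Khk 0.36 above it (SE 0.16, adjusted p = 0.163). Without B6C3F1/J control replicate 2, the mouse with the highest liver markers, the Khk difference was 0.10 (SE 0.12, limma adjusted p = 0.794).

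Of 6 other SLC2 genes measured, 0 rose and 4 fell across strains (limma), where 21.9% of all genes rose and 22% fell. Slc2a2, the carrier of liver and pancreatic beta cells, fell by 0.24 (adjusted p = 0.0256), with a correlation of 0.89 to the liver markers over mice, and Slc2a6, a lysosomal carrier of macrophages, fell by 0.16 (adjusted p = 5.15e-06). Slc2a6 was lower in 5 strains and higher in 2, from -0.42 in B6C3F1/J to 0.09 in DBA/2J. Its change differed between strains (limma F test, adjusted p = 0.00137). Macrophage markers fell too, 7 of 8 across strains, with means of 8.08 to 9.96 in CR mice and 8.81 to 10.87 in control mice, and their part in the Slc2a6 change was not tested. Of 8 sodium-coupled and other sugar transporters 1 passed, Slc50a1 (SWEET1), which fell by 0.12 (adjusted p = 0.000401).

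Of 13 regulators of carrier genes and proteins, 5 rose and 5 fell on CR across strains (limma), beside the same 21.9% and 22% of all genes. Mlxipl (ChREBP), a glucose-sensing transcription factor, rose by 0.84 (adjusted p = 1.38e-24), and its partner Mlx rose by 0.48 (adjusted p = 3.45e-14), both in 7 of 7 strains. Txnip, a protein that takes GLUT1 and GLUT4 off the cell surface, fell by 0.20 (adjusted p = 1.67e-09), and Ebf1, a transcription factor of fat cells, fell by 0.19 (adjusted p = 2.55e-05), both in 7 of 7 strains.

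The genes whose pattern was closest to each of the 7 genes were sought over the 14 strain and diet means, as Pearson correlations among the 9962 genes brighter than the median gene. For Slc2a5 they were Sbk1 (0.99), Parm1 (0.98) and Acly (0.98), the last encoding ATP citrate lyase, which makes acetyl-CoA for fatty acid synthesis. For Slc2a4 they were Emc6 (0.98), Pex16 (0.97) and Pcx (0.97), the last encoding pyruvate carboxylase, and for Slc2a3 Fkbp5 (0.94), Rbm15 (0.91) and Zmym6 (0.90). Within groups, over 112 mice, Slc2a5 correlated with these genes at 0.90, 0.94 and 0.93 and Slc2a4 with its own at 0.74, 0.87 and 0.85. For Slc2a3 the value was 0.71 with Fkbp5, a gene induced by glucocorticoids, but 0.26 with Rbm15 and 0.29 with Zmym6. Slc2a12 was closest to D130007C19Rik (0.92), Adamts12 (0.91) and Fmnl2 (0.90), and Slc2a8 to Micos10 (0.89), Gpn2 (0.87) and Mul1 (0.87). Slc2a1 was closest to Reep3 (0.81), Ndfip1 (0.80) and Rhoa (0.79), and Khk to H4c6 (0.80), Decr2 (0.79) and Spin1 (0.78). For these 4 genes the within-group values ran from -0.09 for Slc2a1 with Rhoa to 0.51 for Khk with Decr2.

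Among the 7 genes, Slc2a4 and Slc2a5 were the likest pair, with a correlation of 0.89 over the 14 means and 0.72 over mice within groups. Slc2a3 ran against both within groups, at -0.46 with Slc2a4 and -0.59 with Slc2a5. Slc2a1 correlated with Slc2a4 at -0.51, and with the epididymis genes at 0.48. These correlations share the libraries and are a description.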

How the data were processed

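Total RNA of epididymal WAT from 112 mice was hybridised to Affymetrix Mouse Gene 1.0 ST arrays. The authors summarised probe sets by RMA in Affymetrix Expression Console (per the submitters' processing notes, versions not given in the sources used here), and the deposited values are log2 signals, already background-corrected and normalised, with array medians of 6.72 to 6.86. Of 35556 probe sets, 21789 had 1 gene symbol in the platform annotation; the brightest was kept for each of 19938 genes. Positions and promoters are RefSeq GRCm38.p6. Strains are written C57BL/6J and BALB/cJ where the labels have C57BL6/J and Balbc/J.

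Differences were tested with limma 3.58.1 (R 4.3.3), with Benjamini-Hochberg adjustment over all genes. CR was set against control within each strain on its 16 arrays. The CR change over strains and its difference between strains were fitted in models of all groups. Levels on the control diet or on CR were compared on the 56 arrays of that diet only. Adjusted p for strain pairs covers genes and pairs. Fold changes are from log2 means. The scripts were tested on simulated data first. The number of arrays limits the precision; no 2 arrays held identical values.

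The 7 genes and all lists were chosen with earlier results of these data known, and the liver markers and the fits without BALB/cJ control replicate 3, BALB/cJ CR replicate 6 or B6C3F1/J control replicate 2 after seeing these values. Named genes are the 7, the 2 largest increases and decreases past the threshold in each pathway list, and the 3 genes likest each of the 7; Gckr and Fbp1 were named after their values were seen. Alternatives were other scalings, filters, probe set rules, weights, variance models, tests and left-out arrays; where each mouse was left out in turn, the 7 genes were refitted with the prior variance and the p limit of the full fit. Same-numbered CR and control mice correlated at -0.36 to 0.55 as deviations from group means, above 0.1 in 18 of 56 pairs. They were not paired, and a replicate block was run as an alternative. Genes of the lists with no probe set of their own symbol were not analysed here.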

Additional observations from a re-analysis of the deposited data

Results flagged for a closer look

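Of 98 sets of 8 values, each set being 1 gene in 1 group of mice, 16 held a value far from the others by Dixon's test. Chance flags about 1 in 20 such sets, but some mice were flagged for several genes, so the flags are not independent. BALB/cJ control replicate 3 was far from its group in Slc2a3 (lowest, 7.11), Slc2a4 (highest, 10.88) and Slc2a5 (highest, 9.69). C57BL/6J CR replicate 2 was far from its group in Slc2a1 (highest, 9.63), Slc2a4 (lowest, 9.37), Slc2a12 (lowest, 7.11) and Khk (highest, 8.28), and CBA/J CR replicate 5 in Slc2a1 (highest, 9.73), Slc2a3 (highest, 8.07) and Slc2a4 (lowest, 10.19). These 2 arrays had the highest epididymis marker means of their groups, 10.85 and 10.66, and their part in these values was not tested.

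The others were B6C3F1/J control replicate 2 in Khk (highest, 9.65) and Slc2a5 (highest, 6.87), C57BL/6J control replicate 2 in Khk (highest, 8.02), B6C3F1/J CR replicate 8 in Slc2a1 (highest, 9.59), C57BL/6J CR replicate 3 in Slc2a3 (lowest, 7.67) and C3H/HeJ CR replicate 4 in Slc2a4 (lowest, 10.42). On the liver markers, B6C3F1/J control replicate 2 ranked 1 and C57BL/6J control replicate 2 ranked 3 of 112 mice.

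The CR change differed between strains for Slc2a4 (limma F test, adjusted p = 0.000675), Slc2a3 (adjusted p = 0.00703) and Slc2a5 (adjusted p = 0.0412), and for Slc2a4 it differed between BALB/cJ and the other strains by -0.55 on the log2 scale.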

How the results depend on the processing

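Of the 20 changes with CR that passed the test (4 across strains and 16 within a strain), 0 changed direction under any alternative run and 3 lost their call under at least 1: Slc2a4 and Slc2a5 in DBA/2J and Slc2a3 in B6C3F1/J. Across strains the 4 calls held under all 11 alternatives for each gene, with Slc2a5 between 2.19 and 2.38, Slc2a4 between 0.85 and 1.00, Slc2a8 between 0.11 and 0.12 and Slc2a12 between -0.25 and -0.17.

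In DBA/2J, 2 genes passed; 1 passed after centring on the median, 1 with a replicate block, 0 by the methods' t-test after adjustment, and 1 to 2 when each mouse was left out in turn. In B6C3F1/J, 3 passed; 5 did so without dim genes, and 3 to 5 with each mouse left out, the 5 without CR replicate 8. In BALB/cJ, 2 passed with all arrays in 1 model. The count of genes whose change in BALB/cJ differed from the other strains was 1, against 0 after centring on the median and 2 with weights per array. The replicate block gave 4 calls in C57BL/6J in place of 3, the added one being Khk (0.24, limma adjusted p = 0.0156). Same-numbered mice correlated above 0.1 in 18 of 56 pairs and were not paired.

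Changes that were not called turned sign near 0. Slc2a8 in C57BL/6J was -0.0139 after quantile normalization. With weights per array, Slc2a3 across strains was -0.0171, Slc2a12 in C57BL/6J 0.0013 and Khk in DBA/2J 0.0438. Without the arrays that stand apart, Slc2a12 in C57BL/6J was 0.0132 and Khk in DBA/2J 0.0596. Slc2a3 in 129S1/SvImJ was 0.0043 in the methods' t-test, and across strains it was -0.0918 without 129S1/SvImJ and C57BL/6J and -0.0109 without BALB/cJ control replicate 3 (chosen after seeing the data). With each mouse left out, Khk ran from -0.0585 to 0.0754 in BALB/cJ and from -0.23 to 0.14 in B6C3F1/J, Slc2a1 in BALB/cJ from -0.0911 to 0.0036, and Slc2a8 and Slc2a12 in C57BL/6J from -0.0167 to 0.0521 and from -0.0874 to 0.0279. The causes were not tested. A signal near background cannot be told from none on these arrays, and 8 mice per group limit small changes such as those of Slc2a8.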
